A study of Mus musculus with 6 samples.

Results

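Collagens are the main structural proteins of the extracellular matrix. Each is built from 3 α chains wound into a triple helix, and each chain has a gene of its own. The collagen genes were taken as every row of the expression file whose symbol is Col, a number, the letter a and a number, which gave 44 of 17778 gene symbols. They were grouped by the type of collagen into 11 fibrillar chains, 6 basement membrane chains of collagen IV, 6 chains of the beaded-filament collagen VI, and 21 others.

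Colon RNA was sequenced from 3 obesity-prone (OP) and 3 obesity-resistant (OR) mice, each as its own library. All 6 were male wild-type C57BL/6J mice fed a high-fat diet for 16 weeks, and the tissue was collected at 21 weeks of age. Of 42 mice on this diet, the 10 with the largest weight gain were defined as OP and the 10 with the smallest as OR. The groups therefore share genotype, strain and diet and differ in the weight each mouse gained, which was not assigned. Expression was given as FPKM (fragments for each kilobase of transcript and each 1000000 mapped fragments), a unit that is scaled for transcript length and carries no read totals, so the depth of each library is unknown.

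Fibroblasts and smooth muscle cells of the gut wall make most of the fibrillar collagens, which form the tension-bearing fibres of the submucosa. Collagen IV is a sheet-like network under the epithelium and around vessels and muscle cells, and collagen VI forms beaded filaments close to cells. Chains are hydroxylated and folded in the endoplasmic reticulum, trimmed after secretion and cross-linked by lysyl oxidases. The colon wall also holds many cells that make little collagen, and in bulk tissue fewer collagen-producing cells and less collagen RNA per cell cannot be told apart.

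RefSeq promoter windows, which run from 250 bases before to 50 bases after a start site in GRCm38.p6, were found for 35 of the 44 collagen genes in 38 windows. The deposited values were made on GRCm39, so these positions serve only to place the sequences shown. Col4a1 and Col4a2, which encode the partner chains of the common collagen IV network, lie on opposite strands of chromosome 8 with start sites 21 bases apart, and their windows share the 78 bases at chr8:11312777-11312854. These bases are shown because the expression of both genes is compared below, with the 22 bases from one start site to the other in capitals, on the + strand.
Col4a1-Col4a2: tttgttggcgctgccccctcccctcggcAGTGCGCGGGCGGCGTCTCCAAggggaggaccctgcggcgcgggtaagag

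The 150 bases before the start sites of Col1a2 and Col3a1, the most highly expressed chains of collagens I and III, are shown because they differ in these letters. Capitals mark CCAAT in Col1a2 (chr6:4505468-4505617, + strand) and TATAAA in Col3a1 (chr1:45311388-45311537, + strand). CCAAT begins 109 bases and TATAAA 117 bases before the start site. Whether either stretch acts as a promoter element was not tested.
Col1a2: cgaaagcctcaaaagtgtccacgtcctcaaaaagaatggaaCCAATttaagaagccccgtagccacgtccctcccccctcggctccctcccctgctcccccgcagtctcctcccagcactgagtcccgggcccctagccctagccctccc
Col3a1: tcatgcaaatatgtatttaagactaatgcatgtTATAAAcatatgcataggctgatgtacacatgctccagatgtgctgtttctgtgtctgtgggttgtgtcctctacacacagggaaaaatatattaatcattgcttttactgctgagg

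Read on both strands, TATAAA was in 13.2% of the 38 collagen windows and in 13.6% of all 32851 windows. CCAAT was in 34.2% of the collagen windows and 37.4% of all windows. GGGCGG, the letters of the GC box, was in 60.5% of the collagen windows and 35.7% of all windows. These matches describe letters in the windows and were not related to the expression values.

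Summed collagen expression in the colon was lower in each of the 3 OP mice than in each of the 3 OR mice. On their own, 0 collagen genes passed the study's thresholds in the test used here, which was not the study's DESeq2 test. The summed FPKM of the 44 genes was 117.29, 118.15 and 150.28 in OP mice 1, 2 and 3 and 220.59, 188.46 and 246.64 in OR mice 1, 2 and 3. The means were 128.6 ± 18.8 in OP mice and 218.6 ± 29.1 in OR mice (SD, n = 3), at a ratio of 1.70. The two-sided exact permutation p was 0.1, which is the smallest p that 3 mice against 3 can give. Collagen RNA took 0.0216% of the total FPKM of a mouse on average in OP mice and 0.0367% in OR mice.

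Of the 44 genes, the mean FPKM was lower in OP mice for 34, higher for 8 and equal for 2. A lower mean in OP mice was common in the whole file, with 63.7% of all 17778 genes against 77.3% of the collagen genes. A filter of at least 0.5 FPKM in at least 3 mice left 29 collagen genes among 13520 genes, which were tested by limma-trend on log2(FPKM + 1). Fold changes are given on this scale as OP against OR, where the change of a gene with low values comes out smaller than it is. At the study's thresholds of a fold change reaching 1.2 upward or 0.83 downward together with a Benjamini-Hochberg q-value below 0.2, 0 collagen genes were lower and 0 were higher, against 0.0222% and 0% of all genes tested. The lowest q-value of a collagen gene was 0.582, so no gene named below passed after adjustment. The paper, which used DESeq2, reports Col6a3, Col3a1 and Col1a1 as higher in OR mice, among genes at a q-value below 0.05. At a q-value below 0.2 it counts many more genes in the whole set than the 3 lower and 0 higher found here. It also reports Col6a3 and Col3a1 as higher in OR mice by quantitative PCR. Below, q-values are given for genes with an unadjusted limma-trend p below 0.05, and two-sided exact permutation p-values for the rest. At an unadjusted p below 0.05, 15 collagen genes were lower and 0 higher in OP mice, where 3.53% and 0.503% of all genes were. All 3 OP mice lay below all 3 OR mice in 13 of the 29 genes and above them in 1, where 6.81% and 1.63% of all genes did so. Without the filter, 15 of the 44 genes were lower and 1 higher at an unadjusted limma-trend p below 0.05, with 3.69% and 0.748% of 17775 genes.

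The median log2 fold change of the 29 genes was -0.50, against -0.10 over all genes tested, of which 70.1% were below 0. Median-of-ratios scaling moved the median of all genes to 0.01. Under that scaling the class medians were -0.41 for fibrillar, -0.50 for basement membrane, -0.76 for beaded and -0.21 for the other collagens. As deposited, the same medians were -0.52, -0.62, -0.89 and -0.27.

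**Figure D1:**
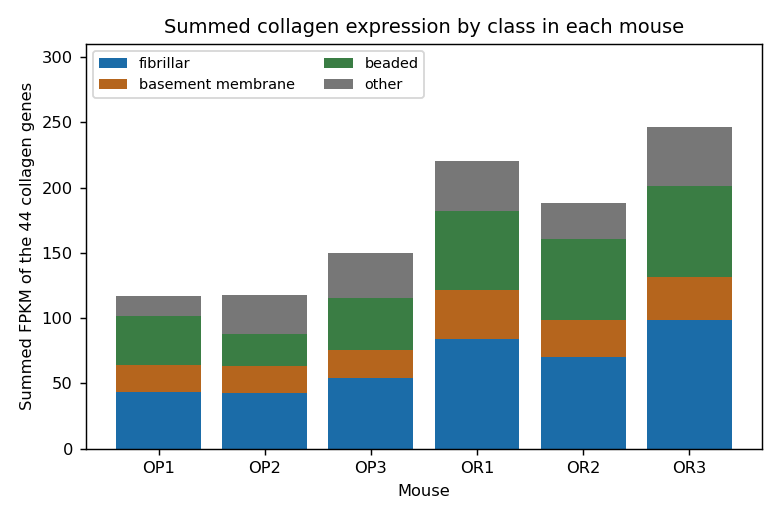
Summed FPKM of the collagen genes in each class, for each mouse (n = 3 a group). The OP sums lie below all OR sums in the fibrillar, basement membrane and beaded classes, and the groups overlap in the other collagens.

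Among the fibrillar collagens, the chains of collagens I and III, the bulk fibre proteins of the gut wall, had about 1.85 to 2.03 times the mean FPKM in OR mice. Col3a1, the only chain of collagen III and the most highly expressed collagen gene on the FPKM scale, had 17.89, 17.2 and 18.85 FPKM in OP mice 1 to 3 and 32.55, 30.24 and 40.71 in OR mice 1 to 3. The OP mice lay close together, and each was well below the lowest OR mouse. The means were 18.0 ± 0.829 and 34.5 ± 5.50 FPKM (SD, n = 3), and the log2 fold change was -0.89 (SE 0.15, limma-trend q = 0.582). Col1a1, which encodes the chain present in 2 copies of each collagen I molecule, had 4.91, 4.71 and 6.7 FPKM in OP mice and 11.9, 8.09 and 13.12 in OR mice. The groups did not overlap, with a log2 fold change of -0.89 (SE 0.23, limma-trend q = 0.798). Col1a2, its partner chain, had 10.45, 8.86 and 14.25 FPKM in OP mice and 19.02, 17.83 and 25.3 in OR mice. Again the groups stood apart, and the log2 fold change was -0.84 (SE 0.22, limma-trend q = 0.798).

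Collagen V is a minor fibrillar collagen that sits inside collagen I fibrils and sets their diameter. Col5a1 had 2.26, 3.33 and 2.88 FPKM in OP mice and 4.44, 3.61 and 5.51 in OR mice, with a log2 fold change of -0.53 (SE 0.21, limma-trend q = 0.945). Col5a2 had 3.3, 3.24 and 3.44 FPKM in OP mice and 6.05, 4.32 and 5.26 in OR mice, with a log2 fold change of -0.51 (SE 0.18, limma-trend q = 0.945). In both genes the groups did not overlap, although OP mouse 2 and OR mouse 2 differed little in Col5a1. For Col5a1, the unadjusted limma-trend p lay between 0.0647 and 0.162 when OP mouse 1, OP mouse 3, OR mouse 1 or OR mouse 3 was left out, and for Col5a2 between 0.0671 and 0.115 without OP mouse 2, OR mouse 1 or OR mouse 3. Col5a3, the third chain, had 1.45, 1.59 and 2.27 FPKM in OP mice and 3.99, 1.89 and 3.08 in OR mice, and OR mouse 2 fell within the OP range (exact permutation p = 0.2).

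The remaining fibrillar genes overlapped between the groups. Col27a1, a fibrillar chain known from cartilage, had 2.15, 2.85 and 4.48 FPKM in OP mice and 4.48, 2.95 and 4.21 in OR mice (exact permutation p = 0.5). Col11a2, a chain of the cartilage collagen XI, had 0.65, 0.78 and 0.81 FPKM in OP mice and 1.02, 0.62 and 0.98 in OR mice (exact permutation p = 0.5). The fibrillar genes not tested were Col11a1, between 0.12 and 0.37 FPKM, Col24a1, between 0.07 and 0.38, and Col2a1, the main cartilage collagen, at or below 0.03. In all, 5 of the 8 fibrillar genes tested were lower in OP mice at an unadjusted p below 0.05, and all 8 had a fold change below 0. Over all genes tested these shares were 3.53% and 70.1%. The summed fibrillar FPKM was 46.9 ± 6.56 in OP mice and 84.2 ± 14.3 in OR mice (SD, n = 3).

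**Figure D2:**
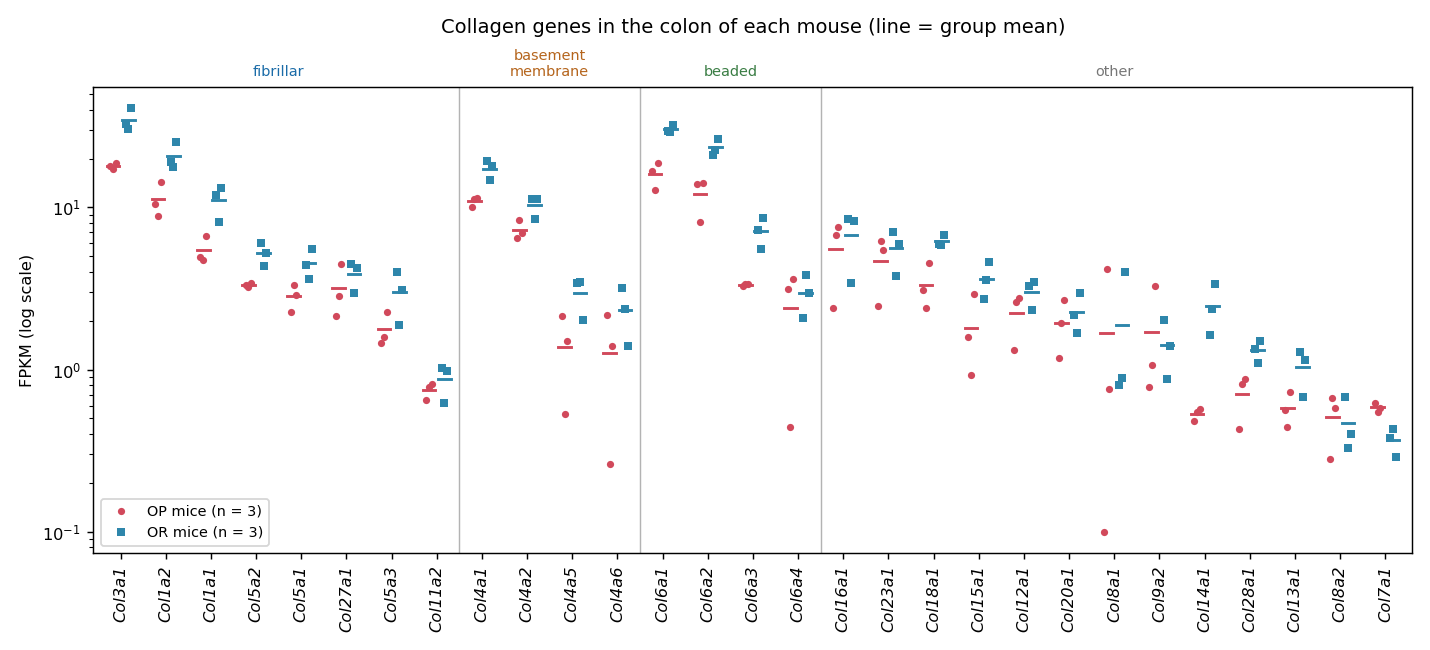
FPKM of the collagen genes tested in each of the 6 mice, on a log axis, with OP and OR mice in different colours. In Col3a1 the OP mice lie between 17.2 and 18.85 and the OR mice between 30.24 and 40.71, while in Col8a1 both groups spread from below 1 to about 4.

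The basement membrane genes showed the same order in their common chains. Col4a1, which contributes 2 of the 3 chains of the widespread collagen IV, had 10.06, 11.23 and 11.35 FPKM in OP mice and 19.24, 14.74 and 17.96 in OR mice. The groups did not overlap, and the log2 fold change was -0.62 (SE 0.16, limma-trend q = 0.798). Col4a2, whose promoter window overlaps that of Col4a1 in the bases shown above, had 6.44, 8.32 and 6.99 FPKM in OP mice and 11.31, 8.42 and 11.25 in OR mice. Here OR mouse 2 was just above OP mouse 2, and the log2 fold change was -0.45 (SE 0.19, limma-trend q = 0.945). The unadjusted limma-trend p was below 0.05, but it was 0.0682 with median-of-ratios scaling and between 0.0894 and 0.154 without OP mouse 1, OP mouse 3, OR mouse 1 or OR mouse 3. The libraries were strand-specific, but whether the counting used strand is not given in the sources used here, so reads from the few bases where the transcripts overlap may have been shared.

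Col4a5 and Col4a6 encode the chains of a collagen IV network of smooth muscle and some epithelia, and they too start near each other, 1343 bases apart on opposite strands of chromosome X in GRCm38.p6. Col4a5 had 2.13, 0.53 and 1.5 FPKM in OP mice and 3.43, 3.45 and 2.01 in OR mice, with a log2 fold change of -0.77 (SE 0.31, limma-trend q = 0.945). Col4a6 had 2.16, 0.26 and 1.39 FPKM in OP mice and 3.2, 2.37 and 1.4 in OR mice, with a log2 fold change of -0.61 (SE 0.37, exact permutation p = 0.2). In both genes OP mouse 2 was the lowest of the 6 and OP mouse 1 was above OR mouse 3, so the groups overlapped. The unadjusted limma-trend p of Col4a5 was below 0.05, but it was 0.0889 with median-of-ratios scaling, 0.0503 at a pseudocount of 0.1, and between 0.0583 and 0.121 without OP mouse 2, OP mouse 3, OR mouse 1 or OR mouse 2. Col4a3 and Col4a4, chains of the kidney and lung form of collagen IV, lay between 0.01 and 0.08 FPKM and were not tested. Thus 3 of the 4 basement membrane genes tested were lower in OP mice at an unadjusted p below 0.05, where 3.53% of all genes tested were. The summed FPKM of the class was 20.8 ± 0.451 in OP mice and 33.0 ± 4.13 in OR mice (SD, n = 3).

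Collagen VI had the lowest median fold change of the 4 classes in the deposited values, although this difference between classes was not tested. Col6a1 had 16.73, 12.82 and 18.67 FPKM in OP mice and 29.73, 29.17 and 32.04 in OR mice. The OR mice lay close together and above every OP mouse, with a log2 fold change of -0.89 (SE 0.17, limma-trend q = 0.624). Col6a2 had 13.88, 8.09 and 14.21 FPKM in OP mice and 21.14, 22.62 and 26.45 in OR mice. OP mouse 2 was the lowest, no OP mouse reached an OR mouse, and the log2 fold change was -0.93 (SE 0.23, limma-trend q = 0.798). Col6a3, the largest of the classical chains, had 3.29, 3.37 and 3.37 FPKM in OP mice and 7.2, 5.57 and 8.58 in OR mice. Its OP values were almost equal, and the log2 fold change was -0.89 (SE 0.20, limma-trend q = 0.710).

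The later-described collagen VI chains had a lower mean FPKM over the 6 mice than the classical ones. Col6a4 had 3.14, 0.44 and 3.62 FPKM in OP mice and 2.08, 3.83 and 2.97 in OR mice (exact permutation p = 0.7). OP mouse 2 stood apart from the rest, and the log2 fold change of -0.37 was 0.17 without it. Col6a5 lay between 0.05 and 0.26 FPKM, and Col6a6 was listed at 0 in all 3 OP mice and at 0.05, 0.02 and 0.04 in the OR mice. Neither was tested. The summed collagen VI FPKM was 34.0 ± 7.97 in OP mice and 64.0 ± 5.42 in OR mice (SD, n = 3).

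Chains that assemble into 1 molecule were compared within each mouse, where scaling between libraries cancels. The ratio of Col1a2 to Col1a1 was 2.05 ± 0.142 in OP mice and 1.91 ± 0.303 in OR mice (SD, n = 3; exact permutation p = 0.7). The ratio of Col4a2 to Col4a1 was 0.666 ± 0.0663 in OP mice and 0.595 ± 0.0283 in OR mice (SD, n = 3; exact permutation p = 0.2). For collagen V, Col5a2 to Col5a1 was 1.21 ± 0.244 and 1.17 ± 0.205 (SD, n = 3; exact permutation p = 0.8). For collagen VI, Col6a2 to Col6a1 was 0.741 ± 0.101 and 0.771 ± 0.0574, and Col6a3 to Col6a1 was 0.213 ± 0.0436 and 0.234 ± 0.0391 (SD, n = 3; exact permutation p = 0.7 for both). After Benjamini-Hochberg adjustment over these 5 ratios, every value was 0.8. On the log2 scale the difference in Col4a2/Col4a1 was 0.16 against a pooled SD of 0.11, and in the other 4 ratios it was smaller than the pooled SD. With 20 arrangements, 3 mice a group cannot show that the ratios were equal.

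**Figure D3:**
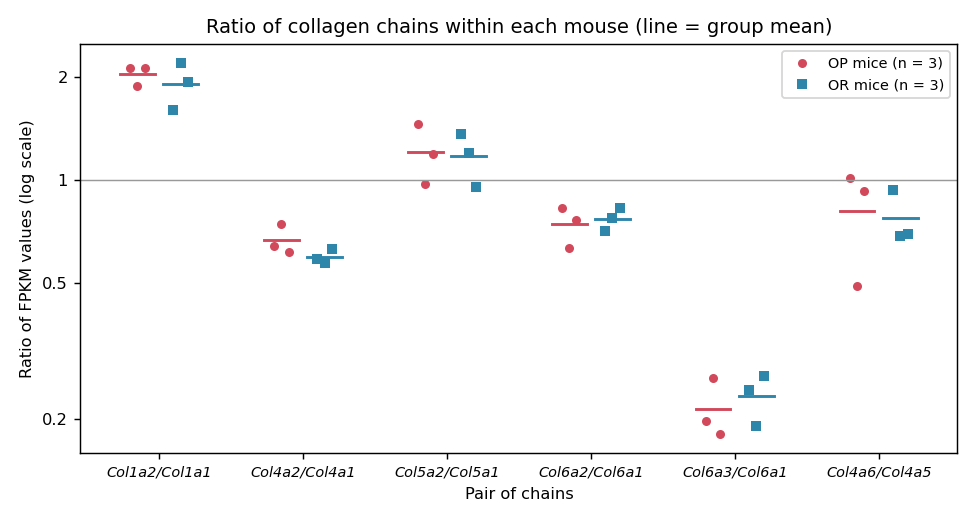
Ratio of the FPKM of 2 chains of 1 collagen in each mouse, with the group mean (n = 3). OP and OR points overlap in every ratio plotted, and Col4a2/Col4a1 runs from 0.571 to 0.741.

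The ratio of summed collagen IV to summed fibrillar FPKM was 0.449 ± 0.0507 in OP mice and 0.397 ± 0.0576 in OR mice (SD, n = 3; exact permutation p = 0.3). Fibrillar genes took 36.5% ± 0.478 of the summed collagen FPKM in OP mice and 38.4% ± 1.43 in OR mice, and collagen VI took 26.5% ± 5.24 and 29.5% ± 2.76 (SD, n = 3; exact permutation p = 0.1 and 0.4). Col3a1, Col6a1, Col6a2, Col1a2 and Col4a1 together made up 56.0% of the summed mean. On the FPKM scale Col3a1 was above Col6a1 and Col6a1 above Col6a2 in all 6 mice, whereas Col6a2 and Col1a2, and Col4a2 and Col1a1, changed places between mice.

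The other collagens were the most varied class. The fibril-associated collagens coat the surface of fibrils, and Col14a1, which regulates fibril growth, had the lowest log2 fold change of any collagen gene tested. It had 0.48, 0.55 and 0.57 FPKM in OP mice and 1.64, 2.36 and 3.36 in OR mice, with means of 0.533 ± 0.0473 and 2.45 ± 0.864 (SD, n = 3), a ratio of 4.60. No OP mouse came near an OR mouse, and the log2 fold change was -1.14 (SE 0.22, limma-trend q = 0.624). Its OP values lay at the filter of 0.5 FPKM.

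The remaining fibril-associated genes overlapped between the groups. Col12a1 had 1.32, 2.62 and 2.76 FPKM in OP mice and 3.26, 2.34 and 3.48 in OR mice (exact permutation p = 0.3). Col16a1 had 2.39, 6.71 and 7.52 FPKM in OP mice and 8.46, 3.43 and 8.27 in OR mice (exact permutation p = 0.5). Col20a1 had 1.18, 1.93 and 2.69 FPKM in OP mice and 2.16, 1.68 and 2.95 in OR mice (exact permutation p = 0.6). In each of the 3, OP mouse 1 was the lowest OP mouse and OR mouse 2 the lowest OR mouse. Col9a2, a chain of the cartilage collagen IX, had 0.78, 1.06 and 3.28 FPKM in OP mice and 2.01, 0.87 and 1.39 in OR mice (exact permutation p = 0.9). Col9a1 lay between 0.09 and 0.14 FPKM, Col9a3 between 0.15 and 0.52, Col22a1 at or below 0.05 and Col19a1 at or below 0.01, and these 4 were not tested.

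The multiplexins are basement membrane collagens of vessels and epithelia. Col18a1, whose end fragment is the angiogenesis inhibitor endostatin, had 3.09, 2.39 and 4.53 FPKM in OP mice and 5.91, 5.89 and 6.74 in OR mice. The groups did not overlap, and the log2 fold change was -0.75 (SE 0.22, limma-trend q = 0.933). Col15a1, found at the outer face of vessel and muscle basement membranes, had 1.58, 0.93 and 2.91 FPKM in OP mice and 2.72, 3.59 and 4.59 in OR mice. OP mouse 3 was above OR mouse 1, and the log2 fold change was -0.76 (SE 0.30, limma-trend q = 0.945). The unadjusted limma-trend p was below 0.05, but it lay between 0.0771 and 0.118 without OP mouse 1, OP mouse 2, OR mouse 2 or OR mouse 3.

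The transmembrane collagens are cell-surface proteins. Col13a1 had 0.56, 0.44 and 0.73 FPKM in OP mice and 1.28, 0.68 and 1.15 in OR mice (exact permutation p = 0.2). Col23a1 had 2.46, 6.17 and 5.47 FPKM in OP mice and 7.09, 3.76 and 5.97 in OR mice (exact permutation p = 0.6). Both overlapped between the groups. Col25a1 lay between 0.26 and 0.7 FPKM and Col17a1, a hemidesmosome collagen of the skin, at or below 0.08, and neither was tested.

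The network-forming collagens had no common order. Col8a1, a chain of the short-chain collagen VIII, had 0.1, 4.19 and 0.76 FPKM in OP mice and 0.8, 0.89 and 3.98 in OR mice (exact permutation p = 0.7). OP mouse 2 and OR mouse 3 were high and the other 4 mice were below 1. Col8a2 had 0.28, 0.67 and 0.58 FPKM in OP mice and 0.68, 0.33 and 0.4 in OR mice (exact permutation p = 1). Col10a1, the collagen of hypertrophic cartilage, was at 0.05 FPKM in OP mouse 1 and listed at 0 in the other mice.

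Col7a1, which encodes the anchoring fibrils that fasten epithelium to the matrix, was the only collagen gene with all OP mice above all OR mice. It had 0.62, 0.55 and 0.58 FPKM in OP mice and 0.38, 0.43 and 0.29 in OR mice, with a log2 fold change of 0.21 (SE 0.14, exact permutation p = 0.1). It passed the filter only through the OP mice, and its unadjusted limma-trend p of 0.174 was 0.0191 with no filter. Col28a1, a collagen with von Willebrand factor A domains, had 0.43, 0.81 and 0.87 FPKM in OP mice and 1.34, 1.09 and 1.51 in OR mice. The groups stood apart, and the log2 fold change was -0.45 (SE 0.18, limma-trend q = 0.945), but the unadjusted p, below 0.05 with all mice, lay between 0.0514 and 0.135 when any mouse other than OP mouse 3 was left out. Col26a1 was listed at 0 except for 0.06 and 0.03 FPKM in OP mice 2 and 3. Among the 13 other collagens tested, 4 were lower in OP mice with an unadjusted p below 0.05, where 3.53% of all genes tested were. The class median of -0.27 became 0.03 without OP mouse 1. Leaving out this mouse also moved the median over every gene tested, from -0.10 to -0.01.

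**Figure D4:**
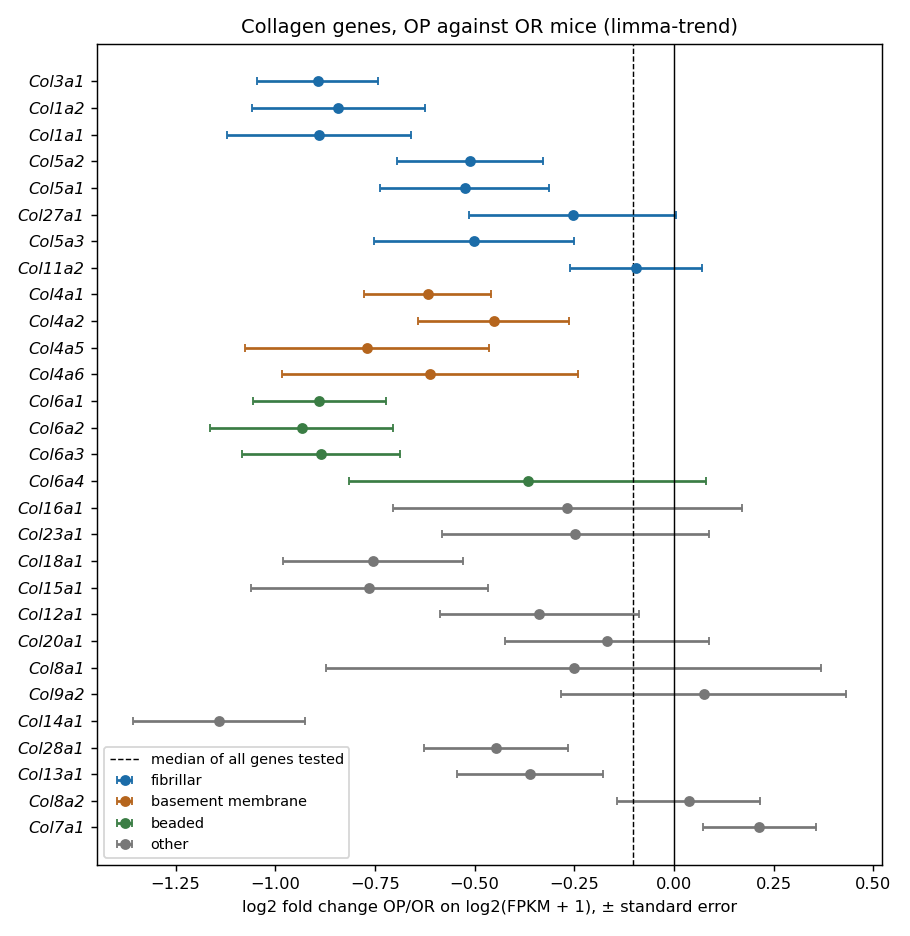
Log2 fold change of OP against OR mice on the log2(FPKM + 1) scale for the 29 collagen genes tested, by class, with bars of 1 SE from limma-trend and the median of all genes tested as a line at -0.10. Col14a1 lies lowest at -1.14 and Col7a1 highest at 0.21.

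The mice within a group did not behave alike across the collagen genes. The matching shares of all genes were not counted, so the counts below cannot be read as particular to collagen genes. In the deposited values, OP mouse 1 was the lowest of the 6 mice in 15 of the 29 genes and OP mouse 2 in 12. Median-of-ratios scaling divides the values of each mouse by a size factor. That of OP mouse 1 was the lowest, 0.803, against 0.983 to 1.106 in the other mice. Its deposited values were therefore low over genes in general, and the counts here were made without this scaling. OR mouse 2 was the lowest OR mouse in 21 genes, including 8 of 8 fibrillar genes, and OP mouse 3 was the highest OP mouse in 20. In 14 genes, OP mouse 1 was the lowest OP mouse and OR mouse 2 the lowest OR mouse. These 2 mice also had the highest FPKM of Car1, a carbonic anhydrase of the colon epithelium, with 14585 and 15723 against 1054 to 6339 in the other 4 mice. The sum of all 10 epithelial markers, 22703 and 22883 in these 2 mice and 9700 to 12738 in the others, rested on Car1. Without it the sums were 8118 in OP mouse 1 and 7160 in OR mouse 2, and OP mouse 2 was highest at 8782. Epcam, Krt20 and Vil1 were also highest in OP mouse 1 and OR mouse 2, by narrower margins than Car1. The other epithelial markers of the list were not. OP mouse 1 also had the lowest sample weight of the 6, 0.332. The part of these differences in the collagen values was not tested.

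**Figure D5:**
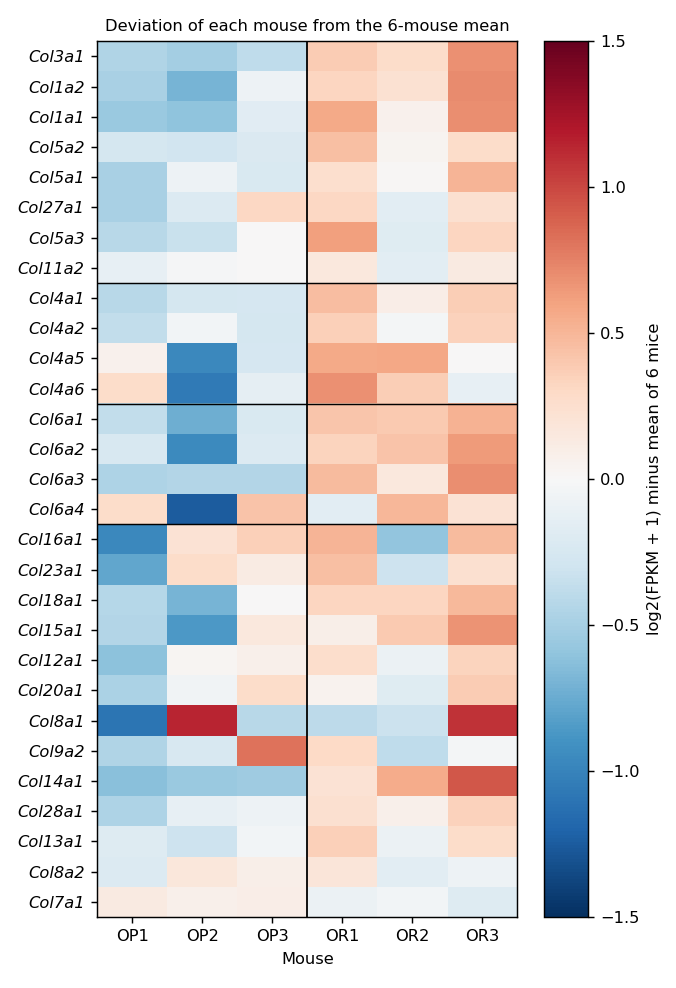
Deviation of each mouse from the 6-mouse mean of log2(FPKM + 1) for the collagen genes tested, as colour, with genes in rows and mice in columns. OP mice 1 and 2 hold most of the lowest values. By the median over all genes plotted, OR mouse 2 is nearer to the mean than OR mice 1 and 3. Within the basement membrane and beaded classes it is not the nearest OR mouse.

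Genes that make and assemble collagen were examined as a list of 38, of which 32 were tested. All 32 had a fold change below 0, with a median of -0.29, and 8 were lower and 0 higher at an unadjusted p below 0.05. None of the 32 passed the study's thresholds. Over all genes tested, 70.1% were below 0, and 3.53% were lower and 0.503% higher at that unadjusted p. Pcolce2 and Adamts2, a procollagen peptidase, were below 0.5 FPKM in all 3 OP mice and were tested only through the OR mice, and without them 6 of 30 genes were lower at that level. Pcolce2, an enhancer of procollagen trimming, had 0.36, 0.2 and 0.46 FPKM in OP mice and 1.75, 2.02 and 2.65 in OR mice, with a log2 fold change of -1.22 (SE 0.18, limma-trend q = 0.507). Dcn, the fibril-binding proteoglycan decorin, had 27.89, 17.35 and 40.8 FPKM in OP mice and 81.13, 95.49 and 191.45 in OR mice, with a log2 fold change of -2.03 (SE 0.39, limma-trend q = 0.624). In both genes each OP mouse was far below each OR mouse. Pcolce, a second enhancer of the same step, and Tgm2, a cross-linking transglutaminase, had log2 fold changes of -0.85 and -0.47 (limma-trend q = 0.945 for both). The others of the 8 were Sparc, a collagen-binding matrix protein, Lox and Loxl1, lysyl oxidases, and Adamts2.

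Of 12 collagen receptors, 11 were tested, with a median of -0.32. At an unadjusted p below 0.05, 3 were lower and 0 higher, where 3.53% and 0.503% of all genes tested were. Antxr2, a receptor for collagens IV and VI, had a log2 fold change of -0.50 (SE 0.18, limma-trend q = 0.945), Ddr2, a receptor kinase for fibrillar collagen, one of -0.53 (SE 0.20, limma-trend q = 0.945), and Antxr1 one of -0.64 (SE 0.25, limma-trend q = 0.945). In each of these 3, the lowest OR mouse was above the highest OP mouse, and 10 of the 11 receptors had a fold change below 0. Of all genes tested, 6.81% had every OP mouse below every OR mouse, and 70.1% had a fold change below 0. The integrin Itga11 had a log2 fold change of -0.47 (exact permutation p = 0.2).

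Of 17 genes of collagen degradation, 11 were tested, with a median of -0.33. At an unadjusted p below 0.05, 3 were lower and 0 higher, where 3.53% and 0.503% of all genes tested were. Timp2 and Timp3, inhibitors of matrix metalloproteinases, had log2 fold changes of -0.77 and -0.66 (limma-trend q = 0.798 for both). Mmp2, a gelatinase, had 5.28, 2.64 and 7.56 FPKM in OP mice and 7.55, 11.3 and 14.82 in OR mice, with a log2 fold change of -1.03 (SE 0.36, limma-trend q = 0.945), and OP mouse 3 and OR mouse 1 were almost equal. Ctsl, a lysosomal protease, had a log2 fold change of 0.24 (exact permutation p = 0.2). Of the 11 genes, 9 had a fold change below 0, where 70.1% of all genes tested did.

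Some marker lists of the cell types of the colon wall were also lower in OP mice, by summed FPKM, and others overlapped between the groups. Beside the counts below, 70.1% of all genes tested had a fold change below 0, and 3.53% were lower at an unadjusted p below 0.05. The 7 blood endothelial markers all had fold changes below 0, with a median of -0.82, and their summed FPKM was 9.03 to 16.8 in OP mice and 18.4 to 32.9 in OR mice. The 5 macrophage markers all lay below 0 too, with a median of -0.88 and sums of 5.01 to 12.9 and 14.8 to 21.8. In these 2 lists the groups did not overlap, and all 7 and all 5 markers were lower at an unadjusted p below 0.05. The 8 fibroblast markers, chosen without collagens, were all below 0 with a median of -0.75, and 4 were lower at that level. Their sums of 85.2 to 388 in OP mice and 212 to 387 in OR mice overlapped through Ly6a, which also marks cells other than fibroblasts. Without Ly6a the sums were 31.3 to 71.8 in OP mice and 80.5 to 179 in OR mice and did not overlap.

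The 8 smooth muscle markers all had fold changes below 0, with a median of -0.31, and 0 were lower at an unadjusted p below 0.05. Their sums of 1447 to 2301 and 1792 to 3302 FPKM overlapped. The 10 epithelial markers, which include the defining gene Epcam, were present in every mouse. Of these, 2 had a fold change below 0, the median was 0.18, and the sums of 9700 to 22703 and 10332 to 22883 overlapped. The 5 adipocyte markers had 4 fold changes below 0 and a median of -0.62, with overlapping sums of 22.2 to 128 and 61.4 to 214, and Adipoq, Plin1 and Lep were listed at 0 in OP mouse 2. The 6 markers of enteric glia and neurons had 4 below 0, with sums of 19.7 to 38.5 and 20.2 to 42.4, and 1 of the 2 mesothelial markers tested was below 0, with sums of 0.96 to 5.96 and 2.48 to 5.34. Of 4 cartilage and bone genes, the 2 in the file were tested and 1 was below 0, with sums of 2.86 to 16.4 and 6.88 to 25.5, and Bglap was listed at 0 in 3 mice. With 70.1% of all genes tested below 0, the counts for epithelium, glia and neurons, mesothelium, and cartilage and bone did not exceed the general share. The part of the listed cell types in the collagen differences was not tested.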

How the data were processed

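The authors deposited FPKM values rounded to 2 decimals, 1 column per mouse, and all 6 columns were used. According to the labels and methods, reads from strand-specific libraries were filtered with SOAPnuke, aligned with Bowtie2 (2.2.5 in the labels) to a reference gene set and quantified with RSEM (1.2.12 in the labels). The methods give other versions, and the submitters' processing notes also name HISAT2 2.0.4 and GRCm39. FPKM values depend on the gene models used and carry no counts, so counting error is unknown and the study's DESeq2 test could not be run. The labels name no batch. Limma-trend p-values set a group difference against the spread between these mice, pooled in part over genes. Permutation p-values rank the difference among the arrangements of the mice.

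Genes with at least 0.5 FPKM in at least 3 mice were tested by limma-trend (limma 3.58.1, R 4.3.3) on log2(FPKM + 1), two-sided, without covariates, with q-values over 13520 genes. Single values were compared on the log2 scale (shares as percentages) by two-sided exact permutation tests over mice (SciPy 1.17.1, 20 arrangements). The limma-trend test was also run on simulated data with independent normal noise for each gene. Such data cannot show how it behaves on these mice. Every collagen gene is named; of each pathway list, up to 4 genes with the smallest p are given with values, and of the markers only sums, counts and genes at 0. Epcam, Car1, Krt20, Vil1, Ly6a and the remaining genes of a count were named after the values were seen. Marker sums without the most abundant gene and the count without Pcolce2 and Adamts2 were also added then. The members and lists were chosen with earlier results of these data known. No 2 libraries were duplicates (at most 0.414% equal values). Alternatives were another pseudocount, filter, scaling, prior and weighting, a replicate block, and each mouse left out. RefSeq proteins were not analysed here.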

Additional observations from a re-analysis of the deposited data

How the results depend on the processing

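No alternative gave a collagen gene past the study's thresholds, with 0 lower and 0 higher in each of 16 settings, and the lowest q-value of a collagen gene ranged from 0.329 to 1.00. Genes lower in OP mice at an unadjusted p below 0.05 numbered 10 to 17, against 15, and 10 to 14 with a mouse left out. With the replicate block the count was 11, but deviations of same-numbered mice correlated at -0.144, -0.157 and 0.0709, so not every mouse correlated best with its own number, and the numbers were taken only as names. Without a filter, 1 gene, Col7a1, was higher. Col1a1, Col1a2, Col3a1, Col4a1, Col6a1, Col6a2, Col6a3, Col14a1 and Col18a1 had an unadjusted p below 0.05 in every alternative run. The basement membrane median was -0.88 with a pseudocount of 0.1, and the beaded median -0.63 without a filter. With a mouse left out, the median of the other collagens ranged from -0.47 to 0.029. The log2 difference in the ratio of collagen IV to fibrillar genes was -0.049 from mean log2 values and 0.06 to 0.28 with a mouse left out. With a mouse left out, the log2 differences ranged from -0.014 to 0.22 for Col1a2/Col1a1, from -0.10 to 0.19 for Col5a2/Col5a1 and from -0.15 to 0.047 for Col6a2/Col6a1, and that of Col6a3/Col6a1 was 0.0042 on the log2(FPKM + 1) scale. Among single genes with p above 0.05, leaving out OP mouse 1 turned the sign of Col16a1 (range over the mice left out -0.63 to 0.15), Col20a1 (-0.35 to 0.029) and Col23a1 (-0.47 to 0.078), and leaving out OP mouse 2 that of Col6a4 (-0.67 to 0.17). Sample weights gave -0.0017 for Col9a2 and 0.080 for Col8a1. With a mouse left out, Col9a2 ranged from -0.31 to 0.32, Col8a1 from -0.88 to 0.23 and Col8a2 from -0.040 to 0.15. The cause of these moves was not tested. Of 394 single-gene values in the alternatives, 341 kept direction and side of 0.05, 33 lost p below 0.05, 7 gained it and 13 turned sign. With 3 mice a group and no read counts, neither small differences nor equality can be shown.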
